A study of Mus musculus with 4 samples.

Results

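miR-191 and miR-425 are microRNAs cut from a pair of hairpins that lie close together on mouse chromosome 9. They were followed through the mmu-miR-191 and mmu-miR-425 probes, 2 of the 700 miRNA probes of the array, chosen by exact probe name without the star (passenger) strands. The samples were total RNA of HC11, a clonal mouse mammary epithelial line derived from the COMMA-1D line. All cells were grown in RPMI medium with glutamine, insulin and gentamicin. For the proliferating, stem-like stage (2 samples) the medium held 10% serum and epidermal growth factor (EGF), and RNA was taken after 48 h. For the differentiated stage (2 samples) EGF was withdrawn and serum lowered to 2% for 48 h, after which the lactogenic hormones dexamethasone (100 nM) and ovine prolactin (1 µg/mL) were added for 72 h. Each of the 2 arrays was taken to hold a proliferating and a differentiated sample, with the dyes exchanged between arrays. The labels do not state which samples shared an array, so same-numbered samples were paired from their dyes and the series' dye-swap design text. On that reading array 1 held proliferating replicate 1 in Cy3 and differentiated replicate 1 in Cy5. Array 2 held proliferating replicate 2 in Cy5 and differentiated replicate 2 in Cy3. The ratios within arrays rest on this pairing. The titles carry the mark repx3, which the labels do not explain, so what each sample repeats or pools is unknown. Nothing in the labels tells whether samples of the same stage came from different cultures. The p-values therefore cover the spread among these samples alone, and that may be technical.

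As background, a microRNA is cut from a hairpin precursor, is loaded into an Argonaute protein and pairs through its seed, bases 2 to 8, with messenger RNAs whose translation or stability it lowers. miR-191 and miR-425 share a host transcript, that of Dalrd3, a gene for a protein with a DALR anticodon-binding domain, and their joint transcription is induced by estrogen in human breast cancer cells. Both are often used as reference miRNAs against which others are scaled. A reference is useful where its level does not move with the condition, and the comparison below asks how far these miRNAs kept their level, rank and spread across the stages of HC11 differentiation.

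The target sequences printed in the scanner tables are shown here because they define what the probes read. Each was identical to 1 mature entry of RefSeq (GRCm38.p6), the 5p arm of its hairpin. The seeds are in capitals:
miR-191: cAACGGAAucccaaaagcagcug
miR-425: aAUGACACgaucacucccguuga
The RefSeq hairpins follow, with the mature strand in capitals:
Mir191 hairpin: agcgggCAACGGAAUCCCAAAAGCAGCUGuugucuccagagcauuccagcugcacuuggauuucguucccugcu
Mir425 hairpin: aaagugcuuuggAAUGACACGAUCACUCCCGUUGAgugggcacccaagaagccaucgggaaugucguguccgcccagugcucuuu
Mature miR-191 lies on the plus strand of chromosome 9 from 108568325 to 108568347 and miR-425 from 108568789 to 108568811. The hairpins are separated by 384 bases, and both lie inside the span of Dalrd3 in the RefSeq gene table. The seeds differ, and the mature sequences, each 23 bases long, are 15 edits apart. No other probe of the array shared the seed of miR-191. miR-489 shared that of miR-425 and was not among the tested probes. The closest other target was 10 edits away from miR-191 and 8 edits away from miR-425. The GC content was 52.2% for miR-191 and 47.8% for miR-425, against a median of 47.7% over the 700 targets.

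Both miRNAs were detected in each of the 4 samples, with 5 of 5 spots above the detection margin (the mean of the empty spots over local background plus 3 of their SDs). The mean signal of miR-191 over the local background was 2518 ± 204 intensity units (SD of 5 spots) in proliferating replicate 1 and 1730 ± 140 in proliferating replicate 2. It was 1934 ± 213 in differentiated replicate 1 and 5686 ± 196 in differentiated replicate 2. These signals are not scaled between samples, and the table of differentiated replicate 2 was brighter throughout, with empty spots at 288 units against 39.1 to 152 in the others. The spread between spots of miR-191 ranged from 3.45% in differentiated replicate 2 to 11.0% of the mean in differentiated replicate 1, below the median over detected probes in every sample (10.1% to 18.4%).

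The miR-425 probe was dimmer. Its signal was 166 ± 21.8 units in proliferating replicate 1 and 126 ± 14.6 in proliferating replicate 2, and 92.0 ± 12.7 and 468 ± 28.4 in differentiated replicates 1 and 2. It stood 12.6 and 11.9 times above the detection margin on array 1, but 2.35 and 2.99 times above it in the proliferating and differentiated samples of array 2. miR-191 was at least 32.2 times above the margin in every sample. Probes differ in how well they bind, so the gap between the probes does not say which miRNA was more abundant, and a rank is compared only for the same probe across samples.

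**Figure D1:**
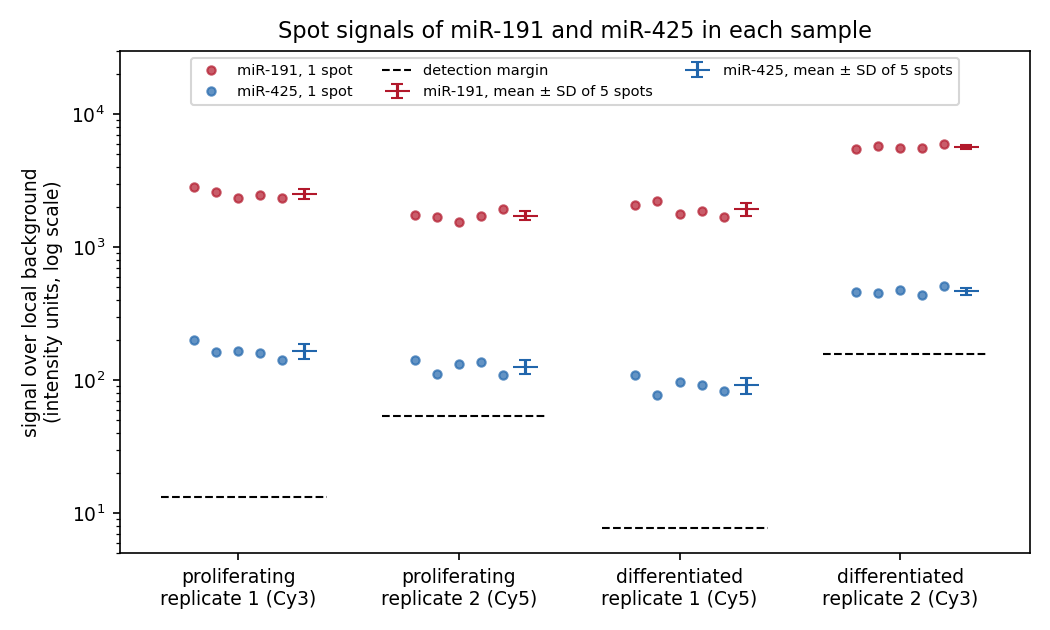
Signal over local background (log axis, intensity units) of the 5 spots of each probe in each sample, with the mean and SD of the spots and, dashed, the sample's detection margin. All spots lie above their margin; miR-425 comes closest to it on array 2, at 2.35 times the margin in proliferating replicate 2.

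The rank of miR-191 by signal, counted from the brightest of 700 miRNA probes, was 37 and 42 in the proliferating samples and 39 and 42 in the differentiated ones. Its rank thus moved by 5 places at most, and the stages overlapped. miR-425 ranked 86 and 99 in proliferating replicates 1 and 2 and 99 in both differentiated samples. By this measure only proliferating replicate 1 stood apart. In the authors' value table the ranks were 41, 45, 40 and 42 for miR-191 and 83, 92, 101 and 97 for miR-425, in the order proliferating replicates 1 and 2, differentiated replicates 1 and 2. There the ranks of miR-425 were lower in number, that is brighter, in both proliferating samples. The same held in that order for uncorrected spot intensity (86, 95, 99 and 98) and for the median of the 5 spots (85, 95, 98 and 99).

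miR-191 made up 0.652% and 0.446% of the summed miRNA signal in the proliferating samples and 0.334% and 0.575% in the differentiated ones. For miR-425 the shares were 0.0430% and 0.0325% against 0.0159% and 0.0473%. In each case the stages overlapped, and on each array the sample stained with Cy3 had the larger share.

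After normexp background correction and loess within each array, the log2 level of miR-191 was 11.80 and 11.09 in proliferating replicates 1 and 2 and 11.21 and 11.35 in differentiated replicates 1 and 2. The differentiated samples lay between the proliferating ones. For miR-425 the log2 levels were 8.21 and 7.75 against 7.93 and 7.93, again with both differentiated samples between the proliferating ones. Stages that overlapped in this way were the less common case: 70.9% of the 172 tested probes (probes that both samples of a stage detected) had stages that did not overlap, 36% with the differentiated samples lower and 34.9% with them higher. In bulk RNA, fewer cells with a miRNA and less of it per cell cannot be told apart.

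Neither miRNA was called as changed. Expressed as differentiated over proliferating, the log2 ratio was -0.17 ± 0.60 for miR-191 (SD, n = 2 arrays; limma adjusted p = 0.691), with a 95% interval from -1.11 to 0.77, or 0.465-fold to 1.71-fold. For miR-425 it was -0.049 ± 0.33 (limma adjusted p = 0.862), with an interval from -0.74 to 0.64, or 0.599-fold to 1.56-fold. These intervals still hold changes of such size in either direction, so the missed threshold does not show that the levels were equal. Over all tested probes 52 (30.2%) were called, 29 (16.9%) higher and 23 (13.4%) lower, at a limma adjusted p under 0.05. The split was 47 higher and 13 lower with median centring and 117 and 8 with spike control probes as the zero point. With 2 samples a stage, the smallest p that an exact permutation test allows is 0.333. An exact sign-flip test on the 2 arrays, which keeps the pairing, allows 0.5 at the smallest.

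The arrays disagreed in sign for both miRNAs. The log2 ratio of miR-191 was -0.59 ± 0.075 (SD of 5 spots) on array 1 and 0.26 ± 0.093 on array 2. That of miR-425 was -0.28 ± 0.091 and 0.18 ± 0.16. All 5 spots of each probe were below 0 on array 1 and above 0 on array 2, so the difference between the arrays was larger than the spread between spots. With loess the Cy3 channel read higher on both arrays, whichever stage it carried. This depended on the scaling: on the authors' values both arrays were below 0 for miR-191 (-0.36 and -0.095) and miR-425 (-0.84 and -0.37), and with spike centring all 4 values were above 0. With quantile normalization miR-425 was at -0.49 and -0.054. Within a stage each dye goes with a different replicate, so a dye effect and a difference between replicates of a stage cannot be told apart. This pattern, below 0 on array 1 and above 0 on array 2, was shared by 18 of the 172 tested probes (10.5%), these included.

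**Figure D2:**
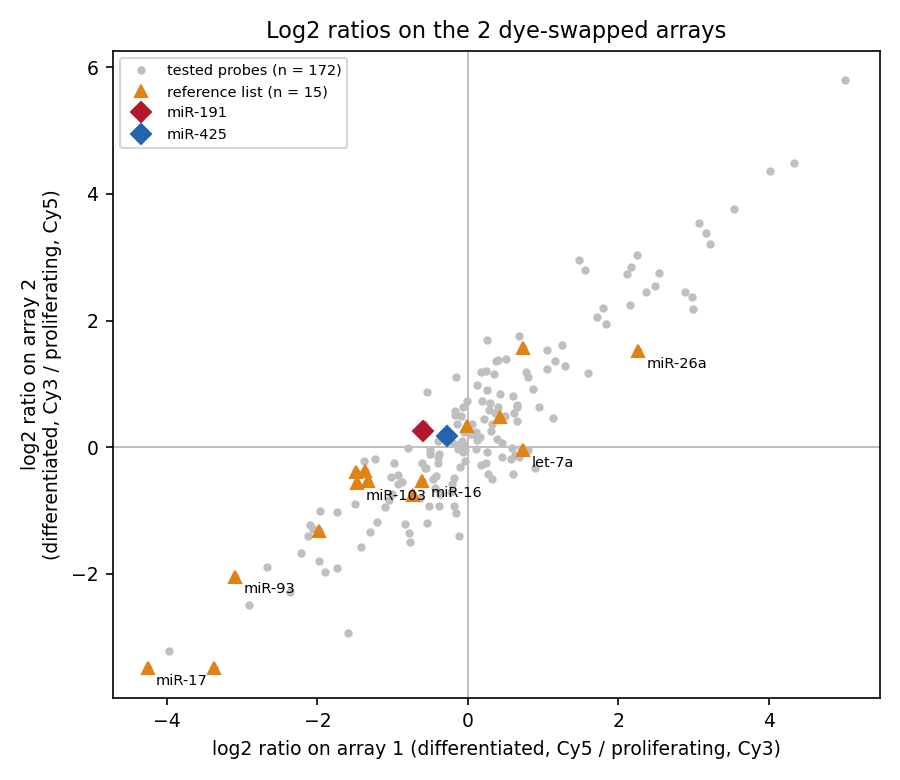
Log2 ratio of differentiated over proliferating cells on array 1 (x axis) and array 2 (y axis) for the 172 tested probes, with the 15 tested members of the reference list as triangles. miR-191 (-0.59, 0.26) and miR-425 (-0.28, 0.18) sit next to each other in the upper left quadrant, near the origin, while miR-17 and miR-93 of the reference list lie far to the lower left.

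The spread between replicates differed by stage. The proliferating samples of miR-191 were 0.71 apart on the log2 scale (SD 0.51), a larger SD than that of 146 of the 172 tested probes. The differentiated samples were 0.13 apart (SD 0.093). miR-425 had proliferating samples 0.46 apart (SD 0.32, larger than in 118 tested probes) and differentiated samples 0.0023 apart, the smallest such gap of all 172. Proliferating replicate 1 was the highest of the 4 samples for both miRNAs. Without it, in a fit with no replicate block, the log2 ratios turned to 0.19 for miR-191 and 0.18 for miR-425, and without proliferating replicate 2 they were -0.52 and -0.28. None of these values was called.

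As measures of stability, the size of the mean ratio and the SD over the 4 samples were set beside those of all tested probes. The absolute log2 ratio of miR-191, 0.17, was undercut by 26 of the 172 probes, and that of miR-425, 0.049, by 6. The median over the tested probes was 0.68. The SD over the 4 samples was 0.31 for miR-191 and 0.19 for miR-425, against a median of 0.49. Smaller SDs were found in 41 and 14 probes. The offset used in normexp correction understates changes of dim probes, which can favour miR-425 over brighter probes in both measures. The place of the ratios depended on the scaling and on 1 sample. Probes with a smaller absolute ratio numbered 60 for miR-191 and 31 for miR-425 with median centring, 59 and 70 with spike centring, 28 and 56 on the authors' values, and 67 and 36 without proliferating replicate 2. A small mean ratio of arrays with opposite signs is partly a cancelling of those signs, which the SD over samples does not hide.

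The other miRNAs often used or proposed as references gave a scale for these values. Of 17 listed, all were on the array and 15 were tested. miR-423-3p was detected in no sample and miR-186 in only 1. The median log2 ratio of the 15 was -0.87, against 0.11 over all tested probes. At the adjusted p of 0.05 in limma, 1 rose and 4 fell, beside the shares of 16.9% and 13.4% over all tested probes. This list was chosen with earlier results of these data known. miR-26a, which represses the Polycomb protein Ezh2, rose by a log2 ratio of 1.89 ± 0.53 (adjusted p = 0.0278). miR-25, miR-93, miR-17 and miR-106a, which belong to the proliferation-linked miR-17-92 cluster and its paralogs, fell, miR-17 by 3.87 ± 0.54 on the log2 scale (adjusted p = 0.0103). miR-25 had a ratio of -1.65 ± 0.47 and miR-93 of -2.57 ± 0.74. miR-106a was not detected in either differentiated sample, so its ratio of -3.43 ± 0.076 (limma adjusted p = 0.00873) rests there on undetected signals. The limma confidence interval of miR-106a ran from -3.99 to -2.87, and spike centring raises every ratio by 1.24, so the size of its fall is uncertain. None of these 5 changed sign in any of the 10 other background and scaling settings run, but miR-25 was not called with median centring (limma adjusted p = 0.127) or spike centring (0.314). The counts for the list moved with the setting: 2 rose and 10 fell with no local background, 3 and 10 with quantile normalization, 2 and 8 on the authors' values, and 5 and 3 with spike centring, where the list's median was 0.37.

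Among the brightest listed miRNAs that were not called, let-7a, which represses Ras and Lin28 mRNAs, was at 0.34 ± 0.55. miR-24 was at -0.73 ± 0.017 and miR-16, which targets cyclin mRNAs and Bcl2, at -0.57 ± 0.056, both with nearly the same value on each array. miR-320, cut without Drosha from its precursor, was at 0.16 ± 0.24. miR-103 and miR-107, which lie in pantothenate kinase genes, had ratios of -1.01 ± 0.64 and -0.94 ± 0.56, and were called lower in 5 other settings, among them quantile normalization and the authors' values. With quantile normalization or no local background, miR-16 and miR-24 were called lower too. Of the 15 tested reference miRNAs only miR-320 had a smaller absolute ratio than miR-191, and none had a smaller one than miR-425. Most of the 15 nevertheless repeated more closely between the arrays than miR-191. miR-16 and miR-24 were among those that also did so more closely than miR-425. The SD over the 4 samples was smaller than that of miR-191 in 2 of the 15, and smaller than that of miR-425 in 0. With a mean signal of 213 units, miR-425 was dimmer than all 15, the dimmest of which was miR-106a at 366. The offset used in normexp correction understates changes of dim probes, so these comparisons can favour miR-425. With offset 16 its SD between arrays was 0.45 in place of 0.33, while 0 of the 15 had a smaller absolute ratio. The order of the absolute ratios depended on scaling. With the authors' processed values, 2 of the 15 had a smaller absolute ratio than miR-191 and 4 than miR-425. With spike centring these counts were 7 and 7, and with median centring 6 and 5.

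**Figure D3:**
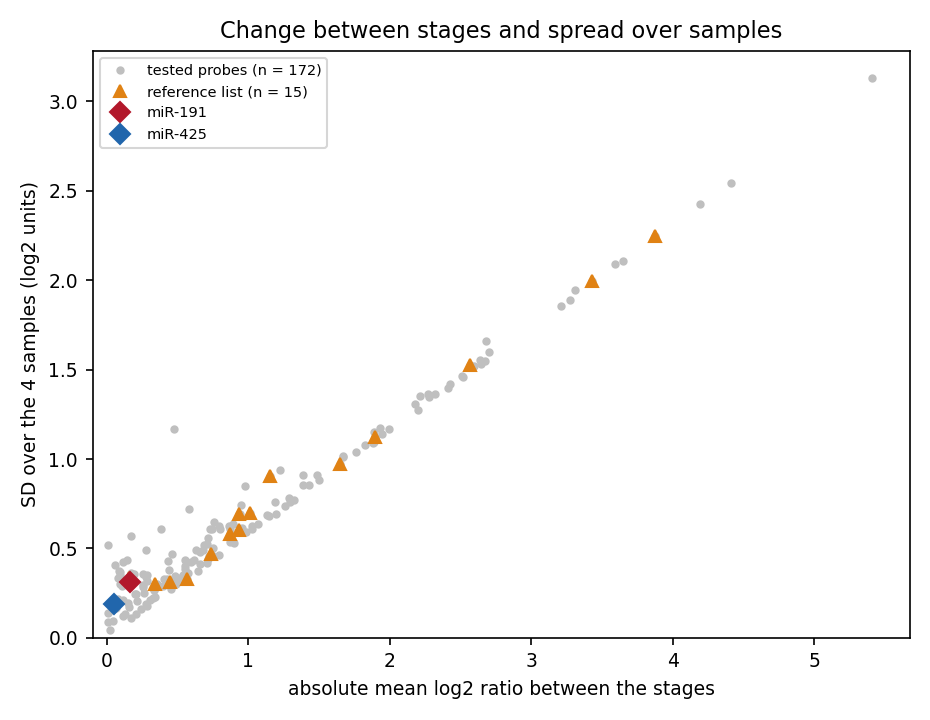
Absolute mean log2 ratio between the stages (x axis) and SD over the 4 samples in log2 units (y axis) for the 172 tested probes, with the 15 tested members of the reference list as triangles. miR-425 (0.049, 0.19) and miR-191 (0.17, 0.31) sit at the lower left, where most of the reference list does not reach. miR-425 is dimmer than all 15, and the offset used in normexp correction understates changes of dim probes.

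What counts as no change depends on what the ratios are centred on. The spike controls, 15 probes detected in all samples, had a median log2 ratio of -1.07 on array 1 and -1.40 on array 2, and the 5 probes of 5S rRNA had -0.40 and -1.27. With the spikes set to 0, miR-191 was at 1.07 (limma adjusted p = 0.00872) and miR-425 at 1.19 (limma adjusted p = 0.00374). In that fit 72.7% of tested probes were called, 68% higher and 4.65% lower, and the median of all of them was 1.35. Relative to that median miR-191 was at -0.28 and miR-425 at -0.16, as with loess by construction, since spike centring shifts each array by a constant. Median centring without loess put miR-191 at 0.54 and miR-425 at 0.30, with a median of 0.53 over tested probes. Over the 9 background and scaling settings that differ by more than such a constant, miR-191 stood between -0.33 and 0.0095 from the median of the tested probes and miR-425 between -0.52 and -0.096.

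The authors' value table gave a lower ratio for miR-425. Its processed intensities were 277 and 183 in the proliferating samples and 154 and 142 in the differentiated ones. These groups do not overlap, as for 70.3% of tested probes in that table, 39.5% with the differentiated samples lower. The log2 ratio was -0.61 ± 0.34 (n = 2 arrays; limma adjusted p = 0.155), with a 95% interval from -1.34 to 0.13, while 60.5% of tested probes were called on that table, 27.9% higher and 32.6% lower. miR-191 had processed intensities of 3237 and 2524 against 2524 and 2362, and its ratio was -0.23 ± 0.19 (limma adjusted p = 0.647). The scaling and centring behind that table are unknown. The median log2 ratio of tested probes in it was -0.089.

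**Figure D4:**
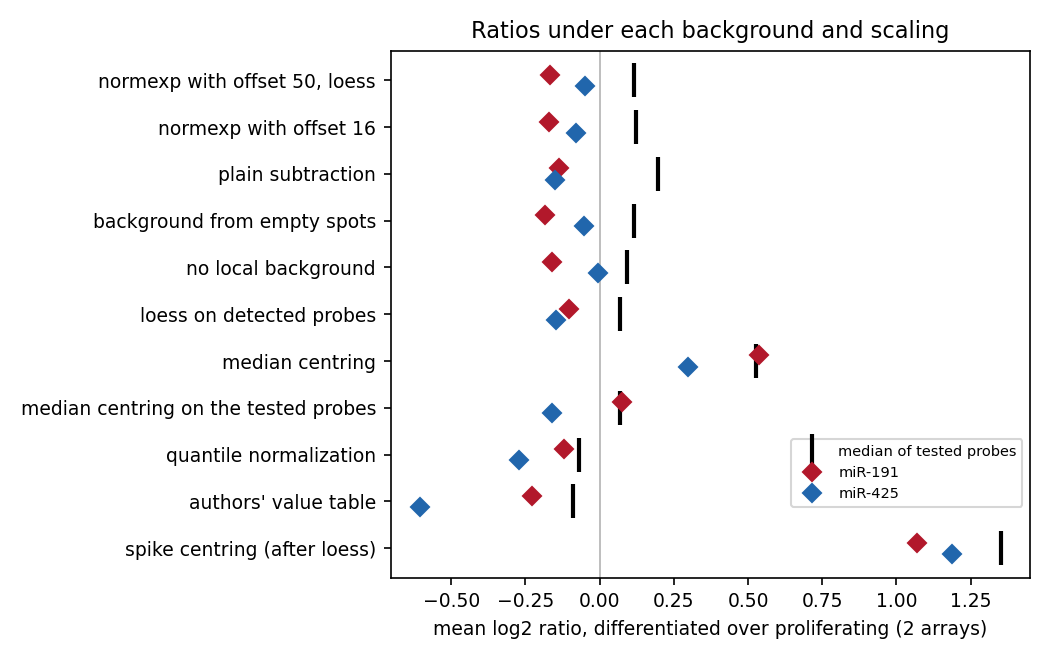
Mean log2 ratio over the 2 arrays (x axis) of miR-191 and miR-425 under each background and scaling, with the median of the 172 tested probes as a black bar. Both miRNAs stay within 0.52 of that median, with spike centring repeating the loess distance by construction, while the median itself ranges from -0.089 to 1.35.

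Used as references themselves, the miRNAs gave somewhat different calls. With each array centred on miR-191, 35 of 171 probes were called higher (20.5%) and 20 lower (11.7%) in limma, of which 28 and 19 were also called with loess alone. Centred on miR-425, 43 were higher (25.1%) and 34 lower (19.9%), including 29 and 23 of the calls with loess alone. Centred on the mean of both, 40 were higher (23.5%) and 27 lower (15.9%). No called probe changed direction in these fits. The median SD between arrays over the tested probes was 0.30 with loess alone, 0.47 when centred on miR-191 and 0.29 when centred on miR-425. Centred on miR-191, miR-425 had a log2 ratio of 0.12 ± 0.27 (adjusted p = 0.856).

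The ratios of the miRNAs from this host gene lay close together. The ratio of miR-191 minus that of miR-425 was -0.31 on array 1 and 0.075 on array 2, a mean of -0.12 ± 0.27, which is within the spread between the arrays. The limma test of this difference, that of miR-425 with the arrays centred on miR-191, gave the adjusted p of 0.856 above, and with the arrays centred on miR-425 instead the adjusted p was 0.785. The order turned with the scaling: miR-425 was the lower by 0.24 with median centring and by 0.38 on the authors' values. For comparison, 90 tested probes without a star matched 1 RefSeq miRNA gene each, and 19 pairs of them, made of 25 probes, lay within 10 kb on the same strand. The absolute difference between the ratios was 0.12 for miR-191 and miR-425. It was smaller in 2 of the 19 pairs, let-7a with let-7d and miR-106b with miR-25, and on the authors' values in 6. The median over these pairs was 0.80 and the largest value 2.22, for miR-429 with miR-200a. These pairs share probes and in part sequence, so their values are a description.

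**Figure D5:**
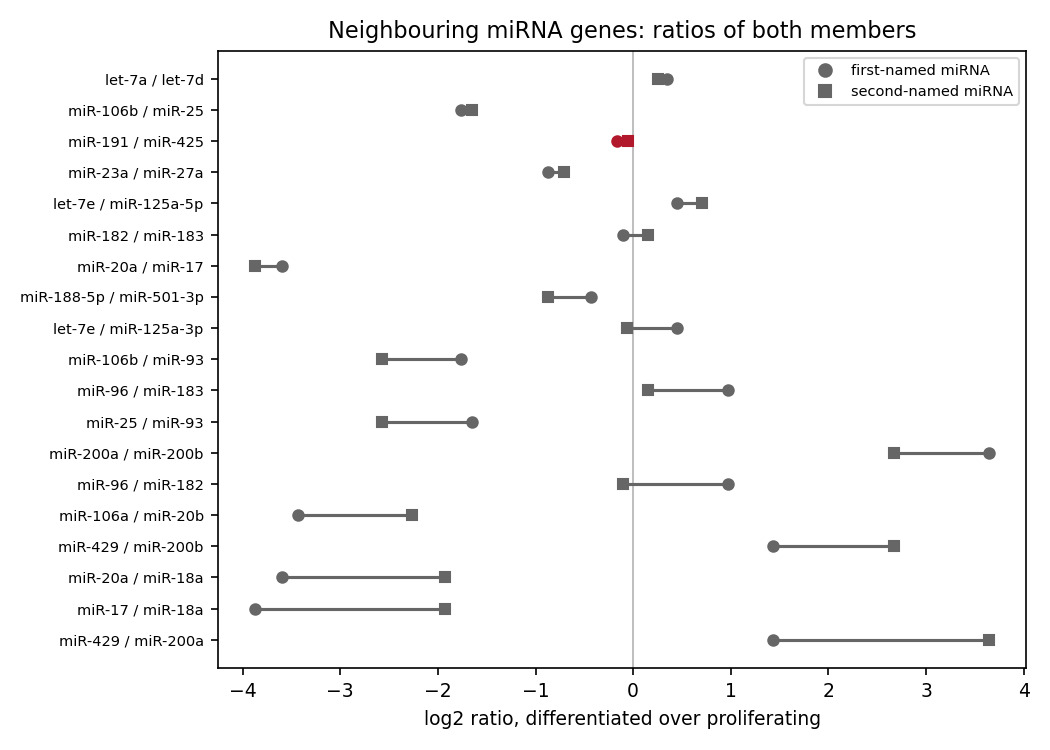
Log2 ratios of differentiated over proliferating cells (x axis) for both members of the 19 pairs of neighbouring miRNA genes, ordered by the gap between them. miR-191 and miR-425, in red, are 0.12 apart, the third smallest gap; miR-429 and miR-200a at the bottom are 2.22 apart.

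By profile over the 4 samples, each centred on its own mean, the probes nearest to miR-191 were miR-182 (root mean square difference 0.10 on the log2 scale), miR-425 (0.12), miR-151-5p (0.13), miR-329 (0.14) and miR-1944 (0.18). Those nearest to miR-425 were miR-185 (0.12), miR-191 (0.12), miR-125a-3p (0.12), miR-27b (0.13) and miR-151-5p (0.14). Each of the miRNAs was thus the second nearest to the other among 171 probes, where the median difference was 0.49 from miR-191 and 0.45 from miR-425. With 4 samples on 2 shared arrays this is a description of likeness only.

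The star strands miR-191* and miR-425*, which were not members, were detected in 0 of the 4 samples. Epithelial markers were present, with 6 of 7 listed probes detected in at least 1 sample and miR-141 undetected. The summed epithelial signal was 5163 to 5793 in the proliferating samples and 18402 to 44601 in the differentiated ones, unscaled. Of the fibroblast list miR-143 and miR-145 were detected in both differentiated samples, and neither was detected in both proliferating samples. The list sums were 31.7 to 65.4 in the proliferating samples and 108 to 695 in the differentiated ones. The blood list had miR-486 alone, the muscle list miR-206 alone and the endothelial list none. The part of these cells in the values above was not tested.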

How the data were processed

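Small RNAs were separated by size, tailed, tagged and stained by LC Sciences, per the labels' protocols. That protocol text names Cy3 for every sample, whereas the samples' dye field gives Cy3 or Cy5; the field and the series' dye-swap design text were followed. Per the file headers, the scanner tables hold mean spot intensity with no background taken off, for 3968 spots, 5 for each miRNA probe. A second deposited table holds processed intensity as made by the authors, and its columns correlated best with their own samples (r of 0.984 to 0.997). Image software and genome build: not given in the sources used here. Same-numbered samples were taken as 1 array from the dye field and the design text. Their deviations from the group means had a correlation of 0.338. Those values had already been normalized within the assumed arrays, so the correlation cannot check the pairing.

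The local background was the 20th percentile of spots within 7 rows and columns. A probe was detected where at least 3 spots were above the margin, 7.75 to 157 units, which 138 to 203 probes were. Ratios came from normexp (offset 50, which understates changes of dim probes), loess (span 0.3) and the mean of 5 spots in limma 3.58.1 under R 4.3.3. They were fitted with lmFit and eBayes (1 residual degree of freedom, prior 2.08), two-sided, with Benjamini-Hochberg adjustment over 172 probes. Levels per sample were taken after Aquantile. The code was tested on simulated data. The number of arrays, 2, limits the precision. The members, lists and tests were chosen with earlier results of these data known. Named miRNAs were the members, the 5 nearest profiles to each, and the 6 brightest and all called members of the reference list; miR-103, miR-107 and the neighbour pairs were named after their values were seen.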

Additional observations from a re-analysis of the deposited data

How the results depend on the processing

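Of the 23 alternatives for miR-191 and 22 for miR-425, 18 each kept the direction. Of these 18, 17 had a test and missed the threshold, and array 1 alone allows none. The 18 include settings that change only the probe filter, the replicate block, the dye term or the variance model. Those repeat the ratio by construction, so they could not turn its sign. Both ratios turned positive on array 2 alone (0.26 and 0.18, no test), with median centring (0.54 and 0.30), with spike centring (1.07 and 1.19, the only setting that called them) and without proliferating replicate 1 (0.19 and 0.18), and that of miR-191 also with median centring on the tested probes (0.077), which was added once the data had been seen; the cause was not tested. miR-425 was too dim for the fit on probes above the median signal. Leaving out samples or an array gave -0.59 to 0.26 for miR-191 and -0.28 to 0.18 for miR-425. Without the replicate block the ratios were the same by construction, with adjusted p-values of 0.742 and 0.918, and 38 probes rose and 33 fell. Calls of 29 higher and 23 lower became 46 and 43 with offset 16, 48 and 37 with plain subtraction, 48 and 45 with no local background, 47 and 13 with median centring, 117 and 8 with spike centring, 50 and 58 with quantile normalization, 48 and 56 on the authors' values and 49 and 45 when loess used detected probes alone. Lower calls numbered 34 with median centring on the tested probes, 34 centred on miR-425 and 13 with no filter, and higher calls 18 on probes detected in all 4 samples; at 0.01 there were 6 and 1. The calls without 1 sample ranged from 21 to 35 higher and 19 to 31 lower. The mean rank of miR-425 in the differentiated samples, 99, became 98.5 with uncorrected intensity and with the median of spots. In the proliferating samples its mean rank, 92.5, became 90.5 and 90, and the stages then no longer overlapped. miR-425 on array 2 lies near the detection margin, which limits its ratio there.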

Other observations

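By the same measures 5 tested probes had both a smaller absolute log2 ratio and a smaller SD over the 4 samples than miR-425. They are named after their values were seen. let-7i had a ratio of -0.0070 and an SD of 0.14, and miR-27b a ratio of -0.024 and an SD of 0.046. Both were brighter than miR-191. The arrays of let-7i had opposite signs, 0.24 and -0.25, so its small mean ratio is partly a cancelling. Those of miR-27b were at -0.10 and 0.052. The other three were dimmer than miR-425: miR-132 with a ratio of 0.045 and an SD of 0.096, miR-128 with -0.036 and 0.16, and miR-872 with 0.0098 and 0.090, the last detected in 3 of the 4 samples. Against miR-191, 16 probes were smaller in both measures. Picked as the extremes among 172 probes in 4 samples, these values carry no test.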
